A study of Mus musculus with 7 samples.

Results

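Apolipoproteins and the proteins that load them with lipid were followed in mouse embryos on embryonic day 9 that were knockout, heterozygous or wild type for Adnp, which encodes a nuclear protein with zinc fingers and a homeobox domain. The set has 9 genes, chosen by name: Apoa1, Apoa2, Apoa4, Apob, Apoc2, Apoe, Apom, Mttp and Soat2. A gene was measured where a probe set, the group of 25-base probes that reports 1 transcript on an Affymetrix Murine Genome 430A array, carried its symbol and no other. That held for 8 of the 9 genes, with 14 of the 20380 probe sets that name a single gene. Soat2 had no such probe set and was not analysed here.

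There were 2 knockout, 3 heterozygous and 2 wild-type arrays. All embryos were C57BL/6 and of mixed sex, no treatment was given in the labels, and the alleles were typed by PCR for Adnp and the neomycin resistance gene on DNA from the yolk sac. Each array held RNA pooled from 2 littermates of the same genotype, so that 14 embryos gave 7 pools, and the pool is the replicate throughout. The yolk sac and amnion had been dissected away, which removes the tissue in which these genes are best known at this stage, and the labels say neither how much endoderm remained on any embryo nor how litters were divided among the pools.

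Lipoproteins are particles that carry fat and cholesterol in water. Apolipoprotein B is the structural protein of the large particles, the microsomal triglyceride transfer protein loads it with lipid while it is made, and the small exchangeable apolipoproteins coat the surface, activate lipases or bind receptors. In the midgestation mouse the visceral endoderm and the yolk sac that derives from it make and secrete these proteins before the liver does, and embryos that lack apolipoprotein B or the transfer protein die in that period.

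The genes lie partly in clusters, with Apoa1 and Apoa4 on chromosome 9 and Apoe and Apoc2 on chromosome 7. The bases in front of the start site given by RefSeq in GRCm38.p6 were read for the 8 measured genes, and they are shown for the cluster pair Apoa1 and Apoa4, for the structural gene Apob and for Apoc2, because these differ in which of 7 short motifs of promoters and endoderm factors they hold. Apoa1 is chr9:46228380-46228629 and Apoa4 chr9:46240594-46240843, both on the plus strand. Apob is chr12:7977427-7977628 on the plus strand and Apoc2 chr7:19677942-19678083 on the minus strand. Both were shortened so that no annotated gene is included, gene models with symbols starting with Gm left aside. Capitals mark motif matches.
Apoa1: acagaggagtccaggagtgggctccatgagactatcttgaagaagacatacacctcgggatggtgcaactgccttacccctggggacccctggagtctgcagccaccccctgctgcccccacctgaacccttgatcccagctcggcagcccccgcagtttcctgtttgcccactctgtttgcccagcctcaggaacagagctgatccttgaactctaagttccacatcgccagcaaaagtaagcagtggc
Apoa4: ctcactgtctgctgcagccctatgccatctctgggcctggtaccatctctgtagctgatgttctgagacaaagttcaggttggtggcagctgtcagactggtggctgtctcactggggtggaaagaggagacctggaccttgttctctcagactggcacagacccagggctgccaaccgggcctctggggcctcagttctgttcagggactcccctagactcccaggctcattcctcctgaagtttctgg
Apob: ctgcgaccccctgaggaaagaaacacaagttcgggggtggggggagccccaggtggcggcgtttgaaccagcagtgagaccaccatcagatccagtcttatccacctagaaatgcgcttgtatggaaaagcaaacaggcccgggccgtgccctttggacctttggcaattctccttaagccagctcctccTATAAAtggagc
Apoc2: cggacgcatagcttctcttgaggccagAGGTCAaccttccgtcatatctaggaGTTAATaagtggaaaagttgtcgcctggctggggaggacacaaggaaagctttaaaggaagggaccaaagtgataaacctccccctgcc

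Both strands of the 250 bases before each start were searched. The TATA box TATAAA was found for Apob alone, 60 to 55 bases before the start, and in 12.4% of 32851 promoters. The start used for Apob lies 48 bases inside the annotated gene, so its sequence shown above ends short of that start. The start used for Apoe also lies inside the annotated gene. The HNF1 core GTTAAT was found for Apoc2, 89 to 84 bases before the start, and in 6.43% of promoters. The nuclear receptor core AGGTCA was found for Apoc2, 115 to 110 bases before the start, and for Apoa2 on the minus strand, against 14% of promoters. The HNF4 cores CAAAGTCCA and CAAAGGTCA, the FOXA core TGTTTAC and the GATA core AGATAA were in none of the 8, and in 0.384%, 0.426%, 3.17% and 9.99% of promoters. Of the motifs, AGGTCA is contained in CAAAGGTCA, and no matches overlapped in these sequences. Apoa1 and Apoa4 held none of the 7. A match is a string of letters and not a measured binding site.

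Signals were comparable in scale between arrays, with medians from 55.5 to 57.4 and Pearson's r from 0.947 to 0.974 across probe sets, which are not independent replicates. The deletion itself could not be checked, because Adnp shares its only probe set with the adjacent gene Dpm1. That set read 1781 ± 140.5 in knockout (SD, n = 2), 1099 ± 106 in heterozygous (n = 3) and 961.4 ± 90.8 in wild type (n = 2), so it shows no loss of Adnp RNA and the genotypes rest on the labels. Differences were tested with limma on log2(signal + 3.8), in 1 fit of 8019 genes bright enough to test, and a gene was called when its Benjamini-Hochberg adjusted p was under 0.05. Each such log2 difference understates the change of dim genes. The number of arrays limits the precision, and the 2 knockout comparisons share the knockout arrays, so they are given side by side and are not independent.

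All 8 measured genes were brighter in both knockout pools than in any of the 5 other pools, and this held for 14 of 14 probe sets, where 11.7% of all probe sets with 1 symbol showed the same order. The dimmer knockout pool exceeded the brightest other pool by 2.27-fold for Mttp and by up to 9.78-fold for Apoa1. In the fit of all genes with no brightness filter, 6 of the 8 were called higher in knockout than in wild type (Apoa1, Apoa2, Apob, Apoe, Apom and Mttp), where 0.88% of genes were called higher. Against heterozygous embryos 7 of the 8 were called higher, all but Apoc2 (limma, adjusted p = 0.0806), where 1.47% of genes were. The brightness filter left 7 of the genes to test, but Apob and Apoc2 passed it only through the knockout pools and Apoa4 did not pass. The 5 that passed it without the knockout pools (Apoa1, Apoa2, Apoe, Apom and Mttp) were called higher in both comparisons. Of all genes past the filter, 1.96% were called higher, 1.36% lower and 3.32% in either direction against wild type, and 3.11%, 2.76% and 5.86% against heterozygous. Adjusted p-values below are those of the fit with the filter unless another is named. In RNA of whole embryos, more cells that express a gene and more RNA per cell cannot be told apart.

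**Figure D1:**
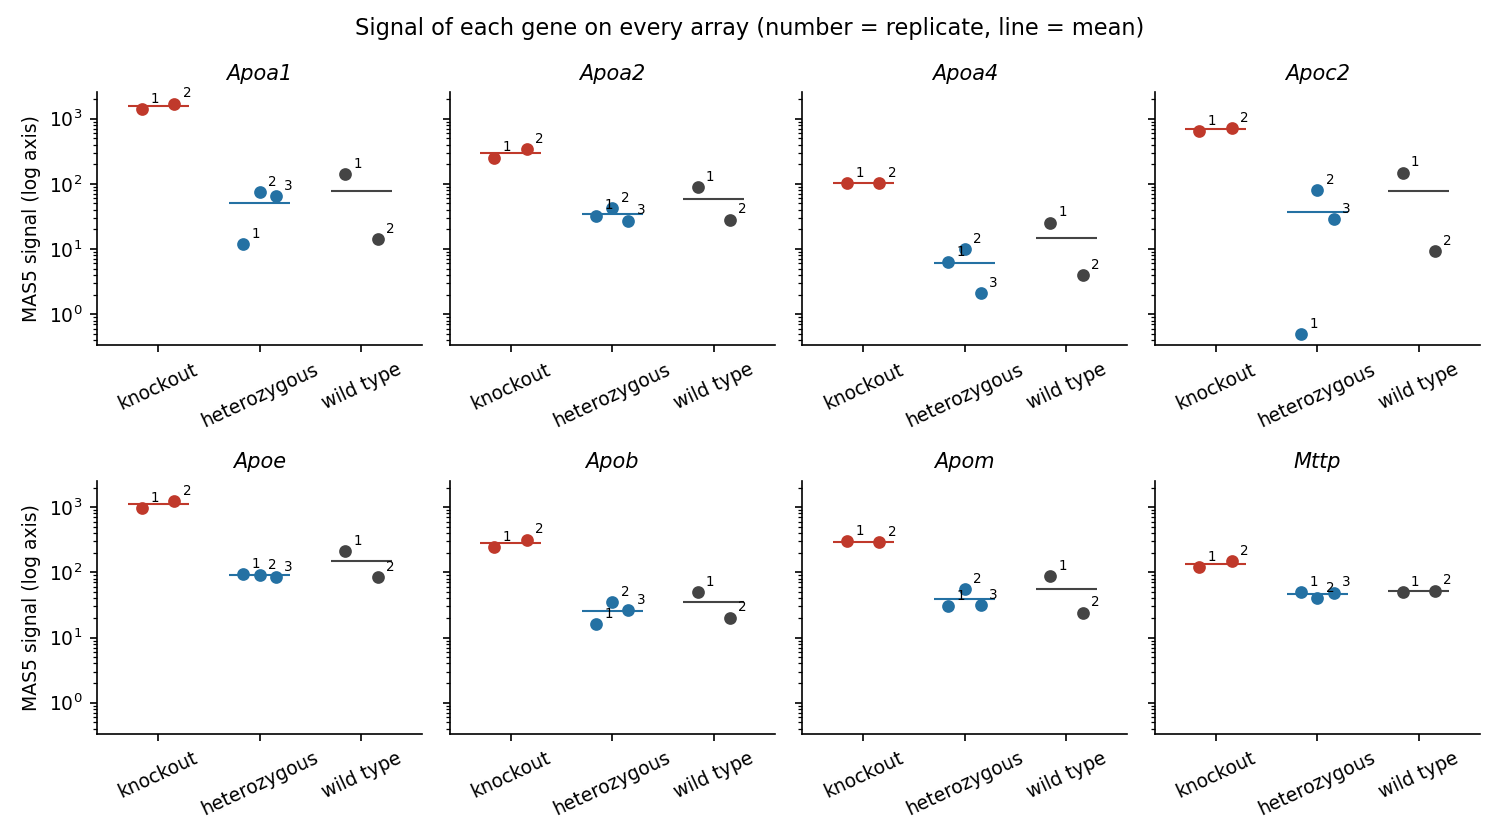
MAS5 signal of each gene on each array (log axis, arbitrary units), 1 panel per gene, with knockout, heterozygous and wild-type pools from left to right, the replicate number beside each point and a line at each group's mean. In every panel both knockout points lie above all others, and the wild-type pair is apart in every gene but Mttp.

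Apoa1, the main protein of high-density lipoprotein, had signals of 1396 and 1706 in knockout, 11.8, 73.8 and 65.3 in heterozygous and 142.7 and 14.2 in wild type. The knockout pools were close to each other and far above the rest, while the heterozygous pools lay within or just under the span of the wild-type pair. On the log2 scale knockout minus wild type was 4.91 (SE 0.89, limma, adjusted p = 0.0171) and knockout minus heterozygous 5.14 (SE 0.82, adjusted p = 0.00714). The call against wild type was lost without knockout replicate 1 (adjusted p = 0.103), knockout replicate 2 (0.135) or wild-type replicate 2 (0.103), where the difference was 5.06, 4.77 and 3.40. Against heterozygous it was lost with either knockout pool left out (0.0645 and 0.0855). It was also lost with no intensity trend (0.0567), the lowest probe set (0.0901) or the robust fit (0.166) against wild type, and with the robust fit against heterozygous (0.0971).

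Apoa1 was measured by 4 probe sets, which all had the same order of knockout above the rest. In another set the signals were 621.1 and 856.7 in knockout, 1.9, 62.4 and 9.3 in heterozygous and 123.8 and 7.2 in wild type. In the 2 remaining sets the lower knockout signal was 1163 and 1357, and the highest other signal was 141.9 and 159.8, each in wild-type replicate 1. These 2 sets and the first carry identifiers ending in x_at, which marks sets with probes that can also bind related transcripts. In a fit of all 20380 probe sets with no filter, 0 of the 4 were called higher than wild type (limma, adjusted p from 0.0727 to 0.159), where 0.471% of probe sets were. Against heterozygous 1 of the 4, the first, was called (0.0351, the others from 0.0571 to 0.0798), where 0.819% were. With the brightness filter these counts were 1 and 4, where 1.25% and 2% were called, but 3 of the 4 sets passed that filter only through the knockout pools.

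Apoa2, the second protein of high-density lipoprotein, read 251.7 and 343.4 in knockout, 32.6, 42.0 and 27.3 in heterozygous and 89.5 and 28.2 in wild type. Wild-type replicate 1 stood above the other 4 pools that were not knockout, and wild-type replicate 2 lay among the heterozygous values. Knockout exceeded wild type by 2.45 (limma, SE 0.42, adjusted p = 0.0129) and heterozygous by 3.00 (SE 0.38, adjusted p = 0.00223). The first call was lost without knockout replicate 1 (adjusted p = 0.0674) or knockout replicate 2 (0.131), and the second was kept whichever array was left out.

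Apoa4, an apolipoprotein of chylomicrons in the adult gut, lay under the brightness filter. Its brighter probe set read 102.9 and 102.4 in knockout, 6.3, 10.0 and 2.1 in heterozygous and 25.5 and 4.0 in wild type, and its other set 64.8 and 97.3 in knockout, 1.8, 1.9 and 3.1 in heterozygous and 10.2 and 1.8 in wild type. Both sets showed knockout pools far above the rest, with wild-type replicate 1 next. In a fit of all genes without the brightness filter, knockout minus wild type was 2.82 (SE 0.62, limma, adjusted p = 0.0692), and it did not pass. Knockout minus heterozygous was 3.51 (SE 0.57, adjusted p = 0.0188), which passed. With a milder filter at the 20th percentile Apoa4 was called in both comparisons (limma, adjusted p = 0.0437 and 0.00862). That filter also counted the knockout pools, and whether Apoa4 would pass it without them was not tested.

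Apoc2, the cofactor of lipoprotein lipase, read 646.2 and 723.5 in knockout, 0.5, 80.8 and 28.7 in heterozygous and 147.9 and 9.3 in wild type. The pools that were not knockout ranged more widely than for any other gene of the set. The difference from wild type was 3.95 (SE 1.26, 95% interval 1.14 to 6.75) and did not pass (limma, adjusted p = 0.122), while that from heterozygous was 4.92 (SE 1.15) and did (adjusted p = 0.0365). Without heterozygous replicate 1 or wild-type replicate 1 the first passed (adjusted p = 0.0322 and 0.045). Without knockout replicate 1, knockout replicate 2 or heterozygous replicate 3 the second did not (0.18, 0.194 and 0.0806). Nor did the second pass with a pseudocount of 1 (0.055), no filter (0.0806), no intensity trend (0.0865), the robust fit (0.205) or the lowest probe set (0.0518).

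Apoe, the ligand by which remnant particles bind receptors, read 967.3 and 1243 in knockout, 93.0, 91.6 and 84.1 in heterozygous and 209 and 85.3 in wild type. The heterozygous pools were nearly equal, wild-type replicate 2 matched them and wild-type replicate 1 lay above. Knockout exceeded wild type by 3.00 (limma, SE 0.32, adjusted p = 0.00129) and heterozygous by 3.56 (SE 0.29, adjusted p = 0.000189). Among the 7 tested genes it alone kept its call against wild type whichever array was left out, with differences from 2.37 to 3.63.

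Apob, the structural protein of very-low-density lipoprotein and chylomicrons, read 246.6 and 317.4 in knockout, 15.9, 35.2 and 26 in heterozygous and 49.1 and 20.2 in wild type. The groups other than knockout overlapped, and the lower knockout pool was 5.02-fold above the brightest of them. Knockout exceeded wild type by 2.99 (limma, SE 0.40, adjusted p = 0.00392) and heterozygous by 3.32 (SE 0.36, adjusted p = 0.000977). Apob passed the brightness filter only through the knockout pools. With no filter both calls were kept, with larger adjusted p-values (limma, 0.0148 and 0.0052). Without knockout replicate 2 the call against wild type was lost (2.81, adjusted p = 0.0597), and no other array left out removed either call.

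Apom, a lipocalin of high-density lipoprotein that carries sphingosine 1-phosphate, read 303 and 288.3 in knockout, 30.0, 55.1 and 31.1 in heterozygous and 86.8 and 24 in wild type. A second probe set, under the filter, read 220.2 and 362.2 in knockout, 2.0, 18.0 and 2.3 in heterozygous and 55.7 and 2.3 in wild type. Wild-type replicate 1 and then heterozygous replicate 2 came next below the knockout pools in both sets. By the brighter set knockout exceeded wild type by 2.58 (limma, SE 0.46, adjusted p = 0.0161) and heterozygous by 2.86 (SE 0.42, adjusted p = 0.00534). The first call was lost without knockout replicate 1 (adjusted p = 0.112), knockout replicate 2 (0.117) or wild-type replicate 2 (1.72, 0.0606), and the second with either knockout pool left out (0.0607 and 0.0639).

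Mttp, the microsomal triglyceride transfer protein, behaved differently from the apolipoproteins in its spread. It read 119.3 and 148.5 in knockout, 50.1, 40.5 and 49 in heterozygous and 49.4 and 52.6 in wild type, so that the 5 pools other than knockout lay close together. Knockout exceeded wild type by 1.32 (limma, SE 0.21, adjusted p = 0.00848) and heterozygous by 1.45 (SE 0.19, adjusted p = 0.00261). This closeness was not seen in its other probe set, which read 143.2 and 123.5 in knockout, 25.2, 54.6 and 34.3 in heterozygous and 52.4 and 22.8 in wild type, with differences of 1.82 from wild type (adjusted p = 0.0508 when every probe set was tested) and 1.77 from heterozygous (0.0318). The call against wild type was lost without knockout replicate 2 (adjusted p = 0.114) or wild-type replicate 2 (0.063), and that against heterozygous without knockout replicate 2 (0.06).

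**Figure D2:**
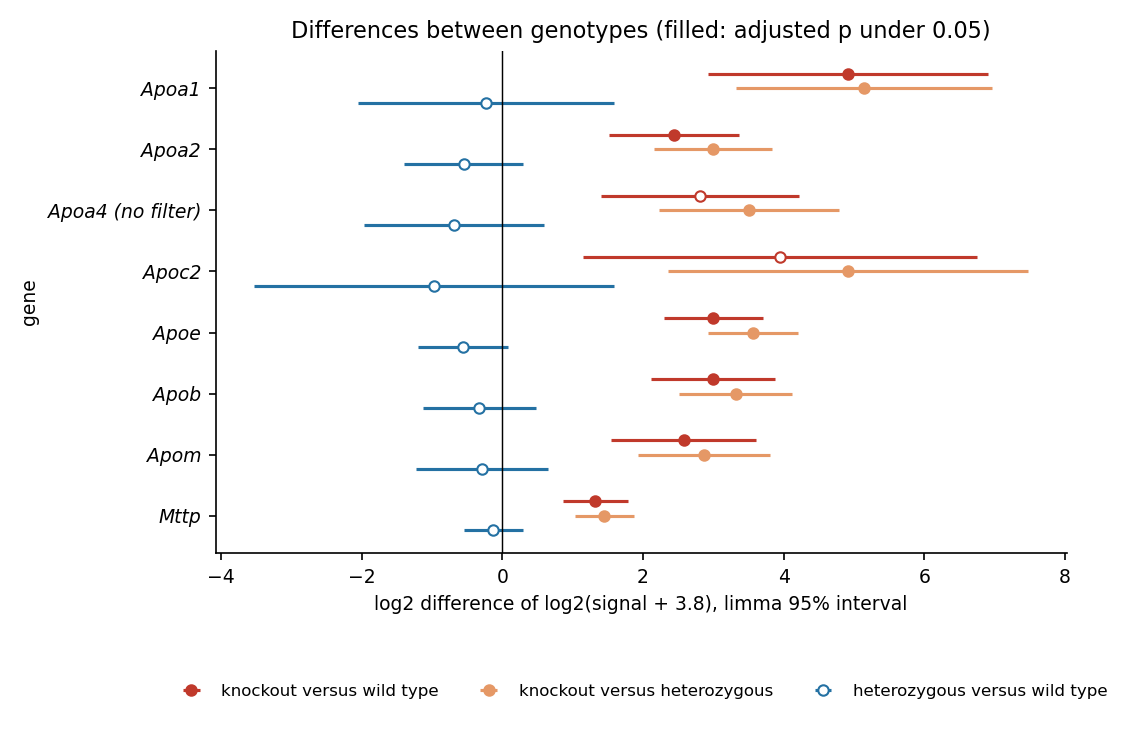
Log2 difference with limma's 95% interval, unadjusted, for each measured gene in knockout versus wild type, knockout versus heterozygous and heterozygous versus wild type, filled where the adjusted p was under 0.05 (Apoa4 from the fit without the filter). The knockout differences run from 1.32 (Mttp) to 5.14 (Apoa1) and their intervals exclude 0, while each heterozygous interval includes 0.

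Heterozygous and wild-type embryos were not told apart by any gene of the set. By limma 0 of the 7 tested genes were called, where 0% of tested genes were, and 0 of the 7 had an unadjusted p under 0.05, where 284 of 8019 genes did. All 7 differences were below 0, from -0.97 for Apoc2 (95% interval -3.53 to 1.59) to -0.13 for Mttp (-0.55 to 0.29). The smallest unadjusted p was that of Apoe (0.0797), whose difference was -0.56 (-1.20 to 0.080). The interval of Apoa1 was wide as well (-0.23, -2.05 to 1.58), so differences of some size in either direction are within the error. For the 6 apolipoproteins the sign rested on wild-type replicate 1, since without it their differences were above 0, 1.28 for Apoa1 and 0.066 for Apoe, and without wild-type replicate 2 these were -1.74 and -1.19. For Mttp the difference by its brighter probe set was below 0 whichever array was left out (-0.18 to -0.038). By its other probe set the difference over all arrays was 0.053.

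The apolipoproteins varied among the 5 pools that were not knockout far more than most genes did. On the log2 scale the range over these pools was 0.35 for Mttp, 1.28 for Apoe, 1.43 for Apob, 1.58 for Apoa2, 1.70 for Apom, 3.23 for Apoa1 and 5.14 for Apoc2. The median of all tested genes was 0.43 and the 90th percentile 0.84. The 4 apolipoproteins that pass the filter without the knockout pools (Apoa1, Apoa2, Apoe and Apom) lay above the 90th percentile. Mttp did not by its brighter probe set, but its other set ranged over 1.13 and lay above it. Apob and Apoc2 lie under the filter in these pools, where signals are noisy. Single pools of Apoa1, Apoa2 and Apom lay under it as well, such as signals of 11.8 and 14.2 for Apoa1. Between the 2 knockout pools the 7 tested genes differed by 0.071 (Apom) to 0.44 (Apoa2).

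The order of those 5 pools was shared. Wild-type replicate 1 was the brightest of them for 7 of 8 genes (12 of 14 probe sets), with Mttp the exception, and heterozygous replicate 2 came second for 6 of 8. These 2 pools were the top pair for 6 of the 8 genes (11 of 14 probe sets), against 13.4% of tested genes. Measured from the mean of the knockout pools, the median distance over the 8 genes was 2.02 to wild-type replicate 1, 2.90 to heterozygous replicate 2, 3.45 to heterozygous replicates 1 and 3 and 3.59 to wild-type replicate 2.

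Markers of visceral and yolk sac endoderm moved in the same way. The summed signal of the 14 measured markers of that list was 8923 and 10520 in knockout, 1208, 2239 and 1425 in heterozygous and 3129 and 1135 in wild type. Wild-type replicate 1 and heterozygous replicate 2 were again the highest of the 5 other pools. Of the 12 tested markers 6 were called higher in knockout than in wild type (median 2.6, limma), beside 1.96% of all tested genes. Against heterozygous 8 were called higher (median 2.61), beside 3.11%. None of the 14 was under the filter on every array. That filter counted the knockout pools, so here and in the lists below a gene could enter the test through its signal there. Without knockout replicate 2 the first count was 0, without knockout replicate 1 it was 2, without wild-type replicate 2 it was 3, and without heterozygous replicate 3 it was 4. With either knockout pool left out the second was 2.

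Among those markers Afp, the fetal serum protein alpha-fetoprotein, read 1605 and 2025 in knockout, 131.4, 323.3 and 152.6 in heterozygous and 559.7 and 140.5 in wild type. Cubn, the uptake receptor cubilin that binds apolipoprotein A-I, read 658.2 and 700.2 in knockout, 14.0, 41.6 and 25.4 in heterozygous and 71.5 and 17.9 in wild type. The part of endoderm markers in the results for the apolipoproteins was not tested.

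Other tissues that could hold apolipoprotein RNA were checked by their markers. The liver bud and hepatocyte list (7 of 8 measured) summed to 287.5 to 308.9 in knockout, 180.2 to 248.8 in heterozygous and 206.3 to 217.9 in wild type. Of its 3 tested markers 0 were called in any comparison, beside 3.32% of all tested genes for knockout against wild type. Alb, Prox1 and Serpina1b were under the filter on every array. The macrophage list (9 of 9) summed to 216.4 to 286.5 in knockout, 184.9 to 196.4 in heterozygous and 167.2 to 203.2 in wild type, and 6 of its 9 genes were under the filter throughout. The gut endoderm list (8 of 8) summed to 2853 to 3085 in knockout, 1160 to 1607 in heterozygous and 1143 to 1646 in wild type. Its genes Shh and Nkx2-1 were under the filter on every array. Of the 5 tested genes of the list 4 were called higher than wild type, beside 1.96% of all tested genes. The 4 were Epcam, Cldn6, Krt8 and Krt18, an adhesion protein, a claudin and 2 keratins of epithelia. None of them was called when either knockout pool or wild-type replicate 2 was left out. The part of these lists was not tested.

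Parietal endoderm, trophoblast, decidua and primitive erythroid markers had 0 of 6, 0 of 2, 0 of 4 and 0 of 5 tested genes called against wild type. The share of all tested genes was 3.32%, so a count of 0 says little in lists this short. The trophoblast list (6 of 8 measured) summed to 210.5 and 264.8 in knockout, 128.3 to 162.1 in heterozygous and 147.7 to 163.7 in wild type. The decidua list (6 of 6) summed to 277.9 and 372.6 in knockout, 1031, 237.8 and 211.8 in heterozygous and 193.9 to 212.7 in wild type, so heterozygous replicate 1 stood apart, mainly through Prl8a2 (828.6 there). Parietal endoderm (7 of 7) summed to 1379 to 1511 in knockout, 1292 to 1389 in heterozygous and 1227 to 1403 in wild type, and primitive erythroid markers (5 of 6) to 10049 to 16311 in knockout, 9471 to 11958 in heterozygous and 11467 to 16532 in wild type. The part of these 4 lists was not tested. The Y-linked gene Kdm5d read 55.3 and 102.9 in knockout, 46.7, 90.3 and 50.1 in heterozygous and 10.0 and 4.3 in wild type, lower in both wild-type pools than in any other pool. Its list of Y-linked genes and Xist (4 of 5 measured) summed to 655.1 and 266.3 in knockout. The sums were 712.6, 249.5 and 646 in heterozygous and 833.9 and 865.8 in wild type. Sex and genotype cannot be told apart where wild type is compared, and the part of sex in the results was not tested.

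Profiles over the 7 arrays were compared with the median of the centred log2 profiles of the 7 tested genes, to which each of them contributes, so that their own nearness is in part by construction. The root mean square distance from it was 0.18 for Apoa2, 0.21 for Apob, 0.22 for Apoe and 0.23 for Apom, and it was 0.92 for Mttp, 1.16 for Apoa1 and 1.37 for Apoc2. The 8 other genes nearest to this profile over the 7 arrays were Afp (0.26), Fmr1nb (0.27), Ctsh (0.31), Lgals2 (0.34), Rbp4 (0.39), Tmprss2 (0.42), Rhox5 (0.44) and Tex19.1 (0.45), beside a median of 1.49 over all tested genes. Rbp4 encodes the plasma carrier of retinol and Ctsh a lysosomal protease, and Afp and Rbp4 belong to the visceral endoderm list. Wild-type replicate 1 was not the brightest other pool for Rhox5 (44.9, against 61.0 in heterozygous replicate 2). Nor was it for Tex19.1 (28.3, against 30.9 in heterozygous replicate 1), while for the others it was. Lgals2, a galectin, read 312.7 and 351.6 in knockout, 30.2, 47.0 and 43.1 in heterozygous and 62.2 and 44.0 in wild type. As these genes were picked for their likeness, their differences between genotypes are not given as tests.

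**Figure D3:**
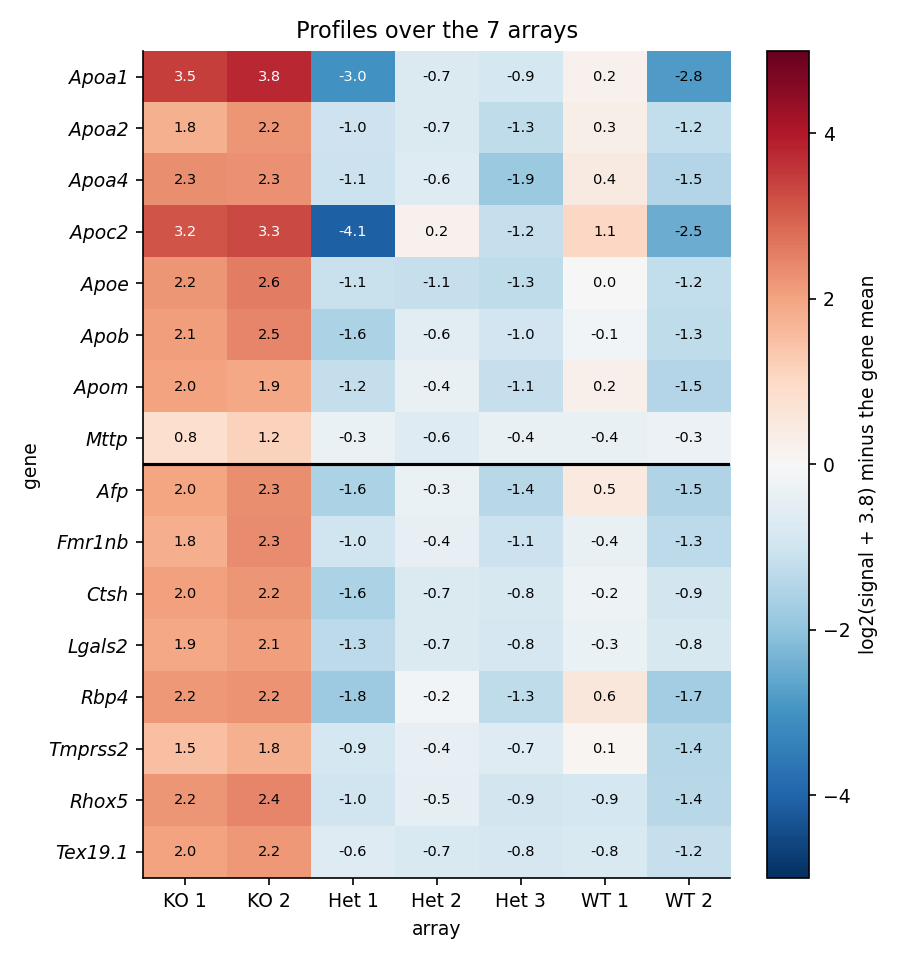
Heat map of log2(signal + 3.8) minus each gene's mean over the 7 arrays (KO knockout, Het heterozygous, WT wild type, with replicate numbers), for the 8 measured genes above the black line and the 8 nearest other genes below it. Both KO columns are positive in every row, and of the 5 other columns WT 1 is highest in every row above the line but that of Mttp.

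Genes next to the 2 clusters were examined in the order of the gene table, up to 4 on each side. Of all tested genes 3.32% were called for knockout against wild type and 5.86% against heterozygous. Counts of 0 among so few neighbours therefore say little. Around Apoa1 and Apoa4, 0 of the 5 tested neighbours (Tagln, Sidt2, Pafah1b2, Zpr1 and Bud13) were called in either knockout comparison, with differences from wild type between -0.47 and 0.40 and a smallest adjusted p of 0.0586 (limma, Pafah1b2). Inside that cluster Apoc3, an inhibitor of lipoprotein lipase, was too dim to test, at 36.7 and 32 in knockout, 20.3, 27.5 and 24.6 in heterozygous and 13.8 and 20.9 in wild type. Apoa5, an activator of the same lipase, was dim as well, at 20.5 and 19.0 in knockout, 29.5, 12.5 and 13.3 in heterozygous and 8.5 and 10.7 in wild type. Around Apoe and Apoc2, 0 of 6 tested neighbours (Clasrp, Clptm1, Tomm40, Nectin2, Bcam and Cblc) were called, with differences between -0.22 and 0.33. Apoc1, which lies between Apoc2 and Apoe, read 41.1 and 86.4 in knockout, 18.3, 62.6 and 51.8 in heterozygous and 47.2 and 46.2 in wild type. Its knockout and other pools overlapped, and the difference from wild type was 0.33 (SE 0.49, adjusted p = 0.77).

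The remaining apolipoproteins, with genes of related name or function such as Apobr, Apoo and Pon1, formed a list of 21 genes. Of these 18 had a probe set and 4 were bright enough to test. By their brightest probe sets none of the 4 was called in any comparison (limma). Of all tested genes 3.32% were called for knockout against wild type and 5.86% against heterozygous. The median difference of the 4 from wild type in knockout was 0.080, beside -0.015 for all tested genes. Clu, the secreted chaperone clusterin, differed by 0.75 (adjusted p = 0.242) and Apon by -0.36 (adjusted p = 0.465). With the mean of its probe sets Clu was called higher than wild type (1.24, limma, adjusted p = 0.0322).

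Of 12 tested genes of lipoprotein assembly and secretion other than Mttp, 1 was called higher in knockout than in wild type. Against heterozygous 3 were called higher, and the medians were 0.11 and 0.044. The shares of all tested genes called higher were 1.96% and 3.11%. Pla2g12b, a catalytically inactive phospholipase family member that takes part in lipid loading in liver, read 91.7 and 123.6 in knockout, 22.0, 37.2 and 22.1 in heterozygous and 38.1 and 26.6 in wild type. It exceeded wild type by 1.63 (limma, SE 0.31, adjusted p = 0.0215) and heterozygous by 1.87 (adjusted p = 0.00604). The brightness filter counted the knockout pools, and with no filter the call against wild type was lost (limma, adjusted p = 0.0588). The call against wild type was lost without knockout replicate 1 (adjusted p = 0.0872), knockout replicate 2 (0.184) or wild-type replicate 2 (0.178), and that against heterozygous without knockout replicate 2 (0.0935). Cideb, a lipid droplet protein of hepatocytes, was above heterozygous by 1.45 (adjusted p = 0.0471), a call lost when any array but heterozygous replicate 2 was left out (0.0628 to 0.232), and its difference from wild type was 1.15 (adjusted p = 0.154). P4hb, the disulfide isomerase that is the small subunit of the transfer protein complex, was above heterozygous by 0.31 (adjusted p = 0.0499), which did not pass with any array left out (0.0615 to 0.254). Sar1a and Sar1b, GTPases of the vesicles that export large particles, differed from wild type by -0.18 and 0.18 and were not called.

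Of 11 tested genes of neutral lipid and sterol ester synthesis, 2 were called higher in knockout than in wild type, with a median of 0.35. Against heterozygous 1 was called higher. Over all tested genes these shares were 1.96% and 3.11%. Mogat2, an acyltransferase of triglyceride synthesis in the gut, read 427.8 and 422.9 in knockout, 279.8, 292.5 and 307.8 in heterozygous and 184.6 and 259.5 in wild type. It exceeded wild type by 0.95 (limma, SE 0.16, adjusted p = 0.0123), and above heterozygous by 0.53 (adjusted p = 0.0582), which passed when a wild-type pool was left out (0.0318 and 0.0336). Scd1, a desaturase, was above wild type by 0.79 (adjusted p = 0.0382) and differed from heterozygous by 0.38 (adjusted p = 0.195). With either knockout pool left out neither was called against wild type (Mogat2 0.0957 and 0.0987, Scd1 0.184 and 0.195), and Scd1 was also lost without heterozygous replicate 3 (0.0685) or wild-type replicate 2 (0.291). Plin3, a lipid droplet coat protein, was above heterozygous by 0.60 (adjusted p = 0.0293), a call lost without knockout replicate 1 (0.155), knockout replicate 2 (0.192), heterozygous replicate 1 (0.0627) or heterozygous replicate 3 (0.0809). Dgat2, which completes triglyceride synthesis, differed from wild type by 0.41 (adjusted p = 0.222).

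**Figure D4:**
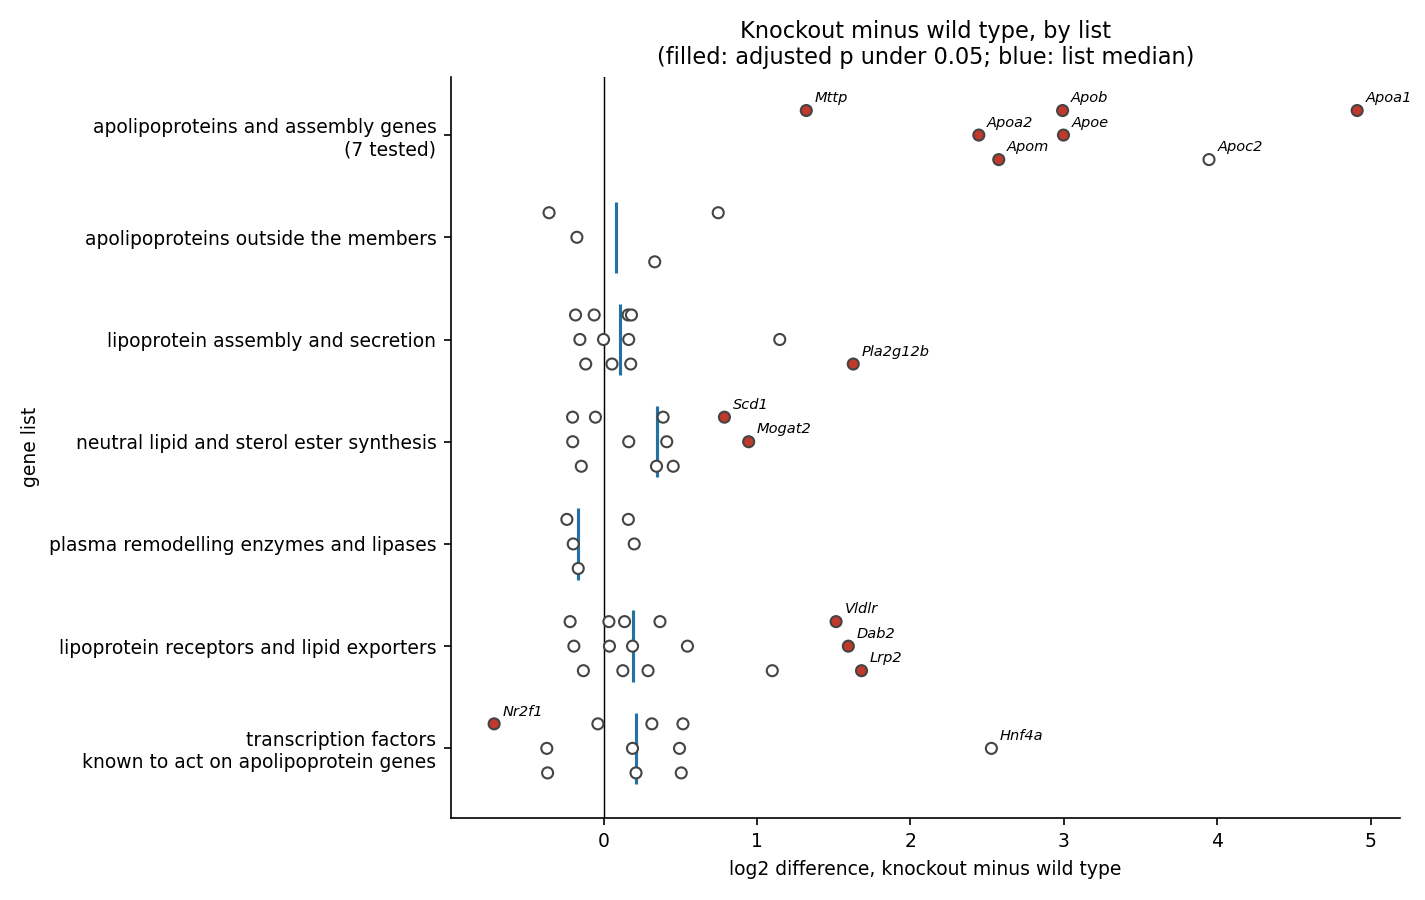
Log2 difference of knockout minus wild type for each tested gene of the set (top) and of 6 related lists, filled where the adjusted p was under 0.05, with a vertical bar at each list's median other than the set's own. The 7 genes of the set lie between 1.32 and 4.91, and the medians of the other lists between -0.16 and 0.35.

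Receptors and exporters had 3 of 15 tested genes called higher in knockout than in wild type and 4 higher than in heterozygous. The medians were 0.19 and 0.22, and the shares of all tested genes called higher were 1.96% and 3.11%. Lrp2, the endocytic receptor megalin, read 177.6 and 156.7 in knockout, 60.8, 66.3 and 58.4 in heterozygous and 59.2 and 41.1 in wild type, a difference from wild type of 1.68 (SE 0.21, limma, adjusted p = 0.00269). Vldlr, the very-low-density lipoprotein receptor, read 117.2 and 109.0 in knockout, 31.2, 29.4 and 23.5 in heterozygous and 34.3 and 40.0 in wild type, a difference of 1.52 (SE 0.23, adjusted p = 0.00848). Dab2, an adaptor of such receptors that also stands on the visceral endoderm list, differed by 1.60 (SE 0.21, adjusted p = 0.00392), and Lrpap1, their chaperone, by 1.10 (adjusted p = 0.0543) from wild type and 1.07 (adjusted p = 0.0339) from heterozygous. The 5 other pools ranged from 41.1 to 66.3 for Lrp2 and from 23.5 to 40.0 for Vldlr. Without knockout replicate 1 the Vldlr call was lost (0.0891), and without knockout replicate 2 those of Vldlr (0.0789) and Dab2 (0.0547) were. Without knockout replicate 1 the call of Lrp2 against heterozygous was lost (0.0607). Lrpap1 passed against wild type without heterozygous replicate 1 (0.00177) and failed against heterozygous with either knockout pool left out (0.147 and 0.212).

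Lipases and remodelling enzymes had 0 of 5 tested genes called in any comparison (limma), with a median of -0.16 between knockout and wild type. Over all tested genes the shares called were 3.32% for knockout against wild type and 5.86% against heterozygous, so 0 of 5 says little. Lipg, endothelial lipase, differed by -0.24 (adjusted p = 0.744), Pltp, the phospholipid transfer protein, by -0.20 (adjusted p = 0.622) and Lipa, lysosomal acid lipase, by 0.20 (adjusted p = 0.535).

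Among transcription factors known to act on apolipoprotein genes 24 of 27 had a probe set and 11 were tested. Of these 0 were called higher and 1 lower than wild type, beside 1.96% and 1.36% of all tested genes. Their median difference was 0.21. Hnf4a, a nuclear receptor that drives apolipoprotein genes in liver and visceral endoderm, read 210.9 and 190.2 in knockout, 15.0, 76.8 and 87.2 in heterozygous and 83.1 and 10.6 in wild type. Its knockout pools were above all others. Against heterozygous it was not called by its brightest probe set, but was by its lowest past the filter (2.17, limma, adjusted p = 0.00876). The difference from wild type was 2.53 (SE 0.82) without passing (limma, adjusted p = 0.129). It passed without heterozygous replicate 1 (0.0463) or wild-type replicate 1 (3.83, 0.0321). Nr2f1, a COUP-type nuclear receptor, was lower in knockout by -0.71 against wild type (SE 0.15, adjusted p = 0.0314) and -0.75 against heterozygous (adjusted p = 0.0134). Without knockout replicate 1, knockout replicate 2 or wild-type replicate 2 the first was lost (0.181, 0.175 and 0.263), and with either knockout pool left out the second (0.109 and 0.107). Gata4 and Foxa2, factors of early endoderm, differed from wild type by 0.52 (adjusted p = 0.0971) and 0.51 (adjusted p = 0.117). Creb3l3, a liver and gut factor that acts on Apoa4, was too dim to test, at 91.5 and 72.7 in knockout, 9.3, 12.1 and 57.3 in heterozygous and 10.5 and 4.2 in wild type. Between heterozygous and wild type 0 genes were called in each of the 6 lists.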

How the data were processed

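The authors deposited 1 linear intensity per probe set and array, made with MAS5 per the submitters' processing notes. For its version, scaling target and detection calls, nothing is given in the sources used here. Leaving out 2% of probe sets at either end, the mean of each array was 150.05, so differences are relative to the whole array and cannot show a general change in RNA. Dim MAS5 signals carry much noise.

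Of 22690 probe sets 64 were controls, and of the rest 20380 had 1 symbol in the platform annotation, 691 several and 1555 were not listed. The 20380 cover 12393 symbols, of which an update through a gene table for GRCm38.p6 changed 0, and 29 identifiers lay outside that table. The scale was log2(signal + 3.8), with the 10th percentile over the table (3.8) as pseudocount. The brightest probe set stood for each gene, and genes under the 40th percentile of mean log2 signal (38.1 as signal plus pseudocount) were left out. limma 3.58.1 in R 4.3.3 (lmFit, eBayes with an intensity trend) was fitted to the 7 arrays with a term for genotype and no covariate, with 4 residual and 6.19 prior degrees of freedom, two-sided, with Benjamini-Hochberg adjustment over the 8019 genes. Every adjusted p is limma's.

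Groups and replicate numbers come from the sample titles. Named genes were the set, of each list every called gene and up to 3 others of largest difference from wild type, cluster neighbours and the 8 nearest profiles. Apoc3, Apoa5, Creb3l3 and the named markers were added after their values were seen. The genes, lists and tests were chosen with earlier results of these data known. Alternatives were the pseudocount, filter, quantile normalization, robust fit, fit without the trend, fit of 2 groups only, weighted arrays, replicate number as a block, other choices of probe set and each array left out.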

Additional observations from a re-analysis of the deposited data

How the results depend on the processing

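No direction among the tested members' called differences reversed under any alternative run. Against wild type, of 135 alternative values of the 7 tested members 115 kept their side of the threshold, 18 lost a call and 2 gained one, and against heterozygous 118 kept it and 17 lost a call. Apoe kept both calls in all 20 alternatives (adjusted p up to 0.0314 against wild type). Apoa1 also lost its call against wild type with no intensity trend (0.0567), the robust fit (0.166) and the lowest probe set (0.0901). Apoc2 lost its call against heterozygous in 9 of 19 alternatives (0.0518 to 0.205). The count of members called higher than wild type (6) was 2 with the filter at the 60th percentile, which leaves only Apoa1 and Apoe in the test, and 1 to 7 with an array left out. Against heterozygous (7) it was 2 with that filter and 3 to 7 with an array left out. Over all genes, the 266 called between knockout and wild type became 161 with no filter, 174 with no intensity trend, 514 with array weights and 36 to 417 with an array left out. The 470 between knockout and heterozygous became 306 with no filter, 262 with no intensity trend, 300 with the lowest probe set and 67 to 545 with an array left out. Heterozygous against wild type gave 0 throughout. The cause of these shifts was not tested, apart from fewer arrays or genes by construction.

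With the replicate number as a block, 72 genes were called between knockout and wild type and 76 between knockout and heterozygous, with 2 members (Apob and Apoe) and 4 members (Apoa2, Apob, Apoe and Mttp) among them. Nothing in the labels makes a number stand for a litter or a day. Same-numbered arrays did not deviate together (r = -0.054 between knockout and wild type, -0.29 and -0.28 between heterozygous and wild type). In a group of 2 arrays the deviations mirror each other, so these values cannot decide whether same-numbered arrays share a litter or day.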
